A study of Drosophila melanogaster with 12 samples.

Results

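The genes described here are the core of the microRNA (miRNA) and small interfering RNA (siRNA) pathways of *Drosophila*: *drosha*, *pasha*, *Dcr-1*, *loqs*, and *AGO1*, and *Dcr-2*, *r2d2*, and *AGO2*. They were chosen by name, as the Dicers, their partners, and the Argonautes AGO1 and AGO2, and not for their values, although earlier results of these data were known. All 8 are among the 15998 genes of the count files, and all 8 were also among the 9612 genes with enough sense counts to be tested (a CPM, the count scaled by library depth, of 1 or more in at least 2 of 8 libraries). Nascent RNA, which stays bound to transcribing RNA polymerase in a urea-washed chromatin pellet, had been sequenced by strand to ask how transcription differs in cells that lack UpSET, a homolog of the yeast chromatin protein Set3. The cells were S2, a male cell line of embryonic origin, and 3 *upSET* mutant lines made from it with CRISPR/Cas-9, each grown from 1 sorted cell, so a mutant line is a single clone. G3 carries a 67 bp deletion that takes out the start codon of *upSET*. A7 carries 2 deletions of 7 bp near the start codon, both of which shift the reading frame. B2 carries a 1 bp deletion that shifts the frame after 367 amino acids. The wild type is the S2 parent. Each of the 4 lines had 2 libraries, and the labels do not say whether these are separate cultures, so p-values measure only the spread between these libraries.

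In the miRNA pathway of flies, Drosha and its RNA-binding partner Pasha cut primary miRNA transcripts in the nucleus. Dcr-1 with Loquacious (the product of *loqs*) then cuts the exported hairpins in the cytoplasm, and AGO1 carries the finished miRNA to its target mRNAs. In the siRNA pathway, Dcr-2 cuts long double-stranded RNA, R2D2 helps to load the duplex, and AGO2 slices the matching RNA, a defense against viruses and transposons in somatic cells such as S2.

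The lines were made with a pair of guide targets in *upSET* (listed as CG9007, chr3L:13995223-14013251 in the dm3 assembly). These are shown because they are the designed difference between the mutant lines and S2, with the PAM in capitals:
upset1 (G3 and A7): aaccgagtcgtgactggacaTGG
upset7 (B2): acagcagatcagcctaccgcAGG

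Sense counts summed to between 8333319 and 10902304 in the libraries numbered 1 and to between 4738785 and 5427807 in those numbered 2, and 8.59% to 10.95% of the reads counted per library were antisense. A gene with 3 counts would then stand at 0.283 to 0.642 CPM, which covers counting error only. The *upSET* gene itself had 464 and 460 CPM in G3, 761 and 605 in A7, 664 and 679 in B2, and 544 and 566 in S2, with no adjusted p under 0.553 against S2. Its lesions are far shorter than the gene, so these counts do not check the genotypes. Of the hemocyte markers, *srp* had between 926 and 1142 CPM and *Pxn* between 228 and 807 CPM, *crq* between 36.2 and 83.6 CPM, whereas *NimC1* was at most at 0.66 CPM and *He* at most at 0.19 CPM. *vkg* (18.0 to 516 CPM), *Cg25C* (8.29 to 423 CPM), and *Hml* (0.88 to 30.5 CPM) differed widely between libraries. The neuronal *elav* had between 49.2 and 65.9 CPM and the gonadal *tj* between 11.6 and 39.7 CPM, while *Mhc* of muscle and each of 3 germline markers were at most at 4.23 CPM. The male-specific *msl-2* had at least 24.1 CPM and *roX2* at least 88.8 CPM in every library.

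All 8 genes were transcribed in every library, and their levels per length of gene were far apart. In S2, *AGO1* averaged 33.5 CPM per kb, ahead of *Dcr-2* at 20.4, *Dcr-1* at 17.3, *drosha* at 16.1, *AGO2* at 14.3, *pasha* at 9.16, *loqs* at 4.49, and *r2d2* at 3.76 CPM per kb. The 2 S2 libraries of each gene did not overlap those of the next gene in this order, although *Dcr-1* (17.0 and 17.5 CPM per kb) and *drosha* (15.4 and 16.8 CPM per kb) all but touched. *AGO1* thus stood above 91.0% of the tested genes per length and *r2d2* above 32.2%. The lengths are those of the whole listed gene, and whether introns were counted is not given in the sources used here, so the order could differ for exons alone.

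With the tests as designed, which held no replicate block, none of the 8 genes was called changed in any mutant line. edgeR's quasi-likelihood test called 0 of 8 in G3 against S2, where it called 0.603% of all tested genes at an adjusted p under 0.05. It called 0 of 8 in A7, against 0.375% of all genes, 0 of 8 in B2, against 0.0104%, and 0 of 8 for the mean of G3, A7, and B2, against 0.156%. DESeq2 also called 0 of 8 in each of these comparisons. At an unadjusted p under 0.05 there were 2 of 8 in G3, *drosha* and *AGO1*, against 11.1% of all genes, and 0 of 8 in A7, in B2, and for the mean of the mutant lines, against 8.75%, 3.25%, and 7.83% of all genes.

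**Figure D1:**
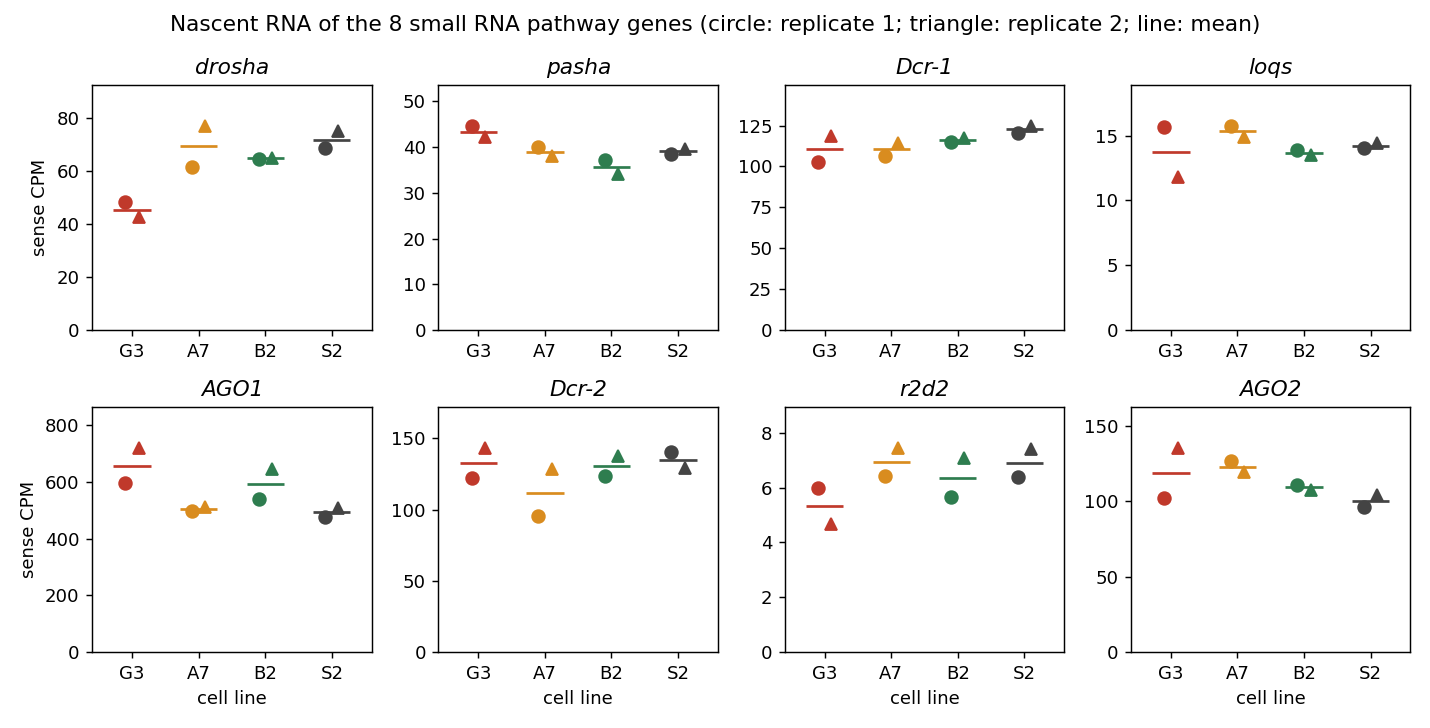
Sense CPM of each of the 8 genes (vertical axis, from 0) in the lines G3, A7, B2, and S2; circles are libraries numbered 1, triangles those numbered 2, and bars the mean of the 2. For *drosha* both G3 libraries (48.2 and 42.5 CPM) lie under the other 6, which start at 61.4 CPM, while *Dcr-1* and *loqs* stay nearly level.

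The nuclear step gave the widest difference of the 8 genes, in *drosha*. Its line means spanned 0.66 on the log2 scale, and 72.7% of the tested genes had a narrower span. *drosha* (chr2R:3819903-3824354), the RNase III enzyme of this step, had 48.2 and 42.5 CPM in G3, 61.4 and 77.0 in A7, 64.6 and 64.8 in B2, and 68.5 and 74.9 in S2. Both G3 libraries were thus below all 6 others, while the A7 libraries lay on both sides of those of B2 and of S2. These are bulk libraries, so fewer cells that transcribe a gene and less RNA per cell cannot be told apart. The log2 fold change in G3 against S2 was -0.66 (SE 0.16, 95% interval -1.03 to -0.29), or 0.634-fold, with an adjusted p of 0.165 by edgeR's quasi-likelihood test. With the replicate number as a block in the same fit it was -0.65 with an adjusted p of 0.0309, so there *drosha* was the only one of the 8 called, where 2.70% of all genes were called lower and 5.85% in either direction. Between same-numbered libraries the log2 ratio was -0.51 for number 1 and -0.82 for number 2. Against the other mutant lines *drosha* in G3 differed by -0.61 from A7 (adjusted p = 0.356) and by -0.51 from B2 (adjusted p = 0.354), and these stayed above the threshold with the block, at 0.0658 and 0.0943.

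In A7 and B2 the log2 fold changes of *drosha* against S2 were -0.05 and -0.15, with 95% intervals of -0.42 to 0.31 and -0.51 to 0.22. Leaving out the second G3 library gave -0.53 with an adjusted p of 0.630 in G3, and leaving out any other library gave values between -0.75 and -0.57.

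*pasha* (chr3R:27443669-27447939), which encodes the RNA-binding partner of Drosha, did not share this. It had 44.6 and 42.1 CPM in G3, 40.0 and 38.0 in A7, 37.1 and 34.0 in B2, and 38.6 and 39.7 in S2. The G3 libraries were above and the B2 libraries below those of S2, by a log2 fold change of 0.15 in G3 (95% interval -0.14 to 0.44) and -0.14 in B2 (95% interval -0.43 to 0.16). None of its comparisons was called. The direct ratio of *drosha* to *pasha* counts, which needs no scaling between libraries, was 1.08 and 1.01 in G3, 1.54 and 2.03 in A7, 1.74 and 1.91 in B2, and 1.77 and 1.89 in S2. This ratio was chosen after the values were seen and has no test; both G3 libraries were below the other 6, which all had at least 1.54 *drosha* counts for each *pasha* count.

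The genes around *drosha* had fold changes below 0 in G3 as well. Of the other tested genes with a midpoint within 50 kb of that of *drosha*, 19 of 19 had a log2 fold change below 0 in G3 against S2, between -1.54 and -0.09, with a median of -0.53. The adjacent genes on either side, *rnh1* at 11 bp and *CG8728* at 12 bp, had -0.58 and -0.58. None of the 19 was called without the block, against 0.603% of all genes in G3, and 5 were with it, against 5.85%. In the same genes the median was 0.02 in A7, with 9 of 19 below 0, and -0.05 in B2, with 13 of 19 below 0.

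The pattern was seen in both series of libraries. The median log2 ratio of these 19 neighbors in G3 over S2 was -0.47 for the libraries numbered 1, with 19 below 0, and -0.41 for those numbered 2, with 16 below 0. For comparison, 1993 tested genes of 2R had a median of -0.12 in G3. Across 8424 genes with at least 5 tested neighbors, 2.11% had a neighbor median in G3 as low as that of *drosha* or lower. Genes that lie near each other share neighbors, so this share is a description and not a test. Neighbor medians in G3 were -0.21 at *Dcr-1*, -0.27 at *loqs*, -0.14 at *pasha*, 0.23 at *Dcr-2*, and -0.28 at *r2d2*. The genes themselves had log2 fold changes of -0.15, -0.04, 0.15, -0.02, and -0.35, in this order.

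Fold changes below 0 went beyond the nearest genes. In G3, 48 of 56 genes between 100 and 250 kb from *drosha* were below 0, with a median of -0.38, and 45 of 56 between 250 and 500 kb, with a median of -0.35. Between 1000 and 2000 kb it was 137 of 194 (70.6%), with a median of -0.18; of all tested 2R genes 64.2% were below 0 in G3. The decline was uneven: on the side of lower coordinates the median was -0.37 between 250 and 500 kb and -0.003 between 500 and 1000 kb, whereas on the other side it was -0.06 and -0.44 at these distances, the first from 7 genes only. In A7 and B2 the genes between 100 and 250 kb were mostly below 0 as well, 39 of 56 (median -0.17) and 36 of 56 (median -0.11). On the side of higher coordinates A7 had 26 of 34 of them below 0, with a median of -0.25. In G3 it was 28 of 34 there, with a median of -0.30. Between 250 and 500 kb on both sides the medians were -0.07 in A7 and -0.04 in B2. The distances were chosen after the data were seen.

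**Figure D2:**
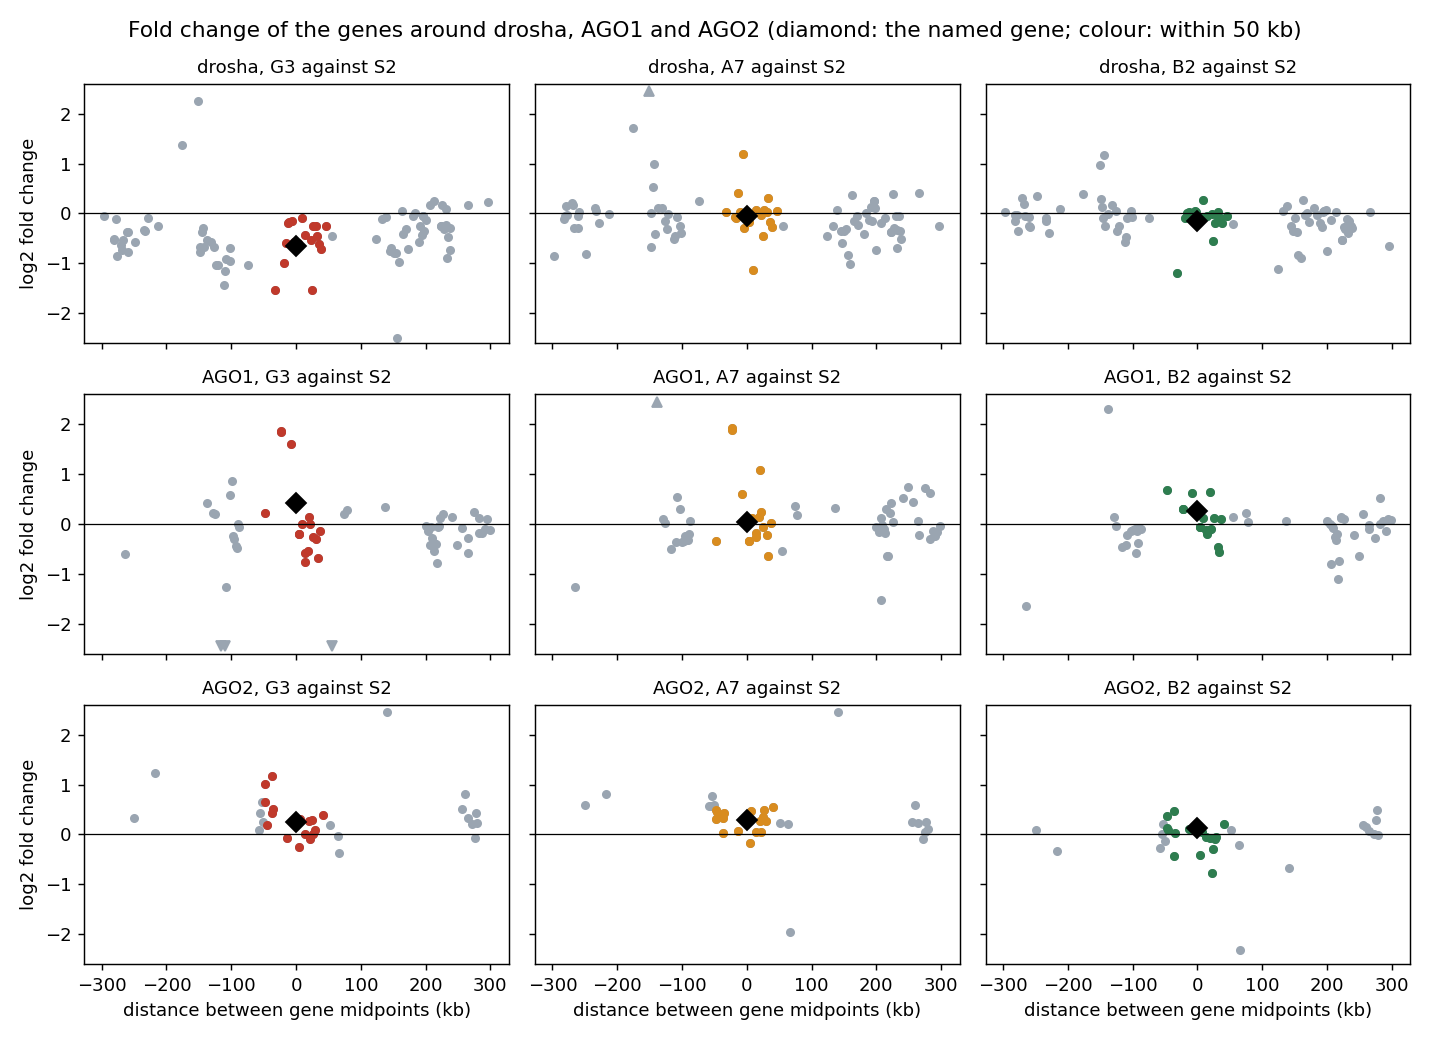
Log2 fold change against S2 (vertical axis) of tested genes by the distance of their midpoint from that of *drosha*, *AGO1*, or *AGO2* (horizontal axis, kb), in G3, A7, and B2; diamonds are the named genes, colored points lie within 50 kb, and triangles at the edge are values beyond the axis. All 19 colored points around *drosha* are below 0 in G3 and scatter around 0 in A7 and B2, while *AGO1* in G3 lies above most of its neighbors.

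The 3 genes whose profile over the 8 libraries was most like that of *drosha*, of 5741 candidates with a mean of at least 10 CPM, were *pigeon*, *barr*, and *nst*. Their centered log2 CPM differed from that of *drosha* by a root mean square of 0.0888, 0.102, and 0.105, where a flat profile differs by 0.278. *pigeon* had 13.9 and 13.6 CPM in G3, 18.5 and 22.3 in A7, 18.7 and 20.7 in B2, and 19.1 and 25.4 in S2. As in *drosha*, both G3 libraries were the lowest, and the fold changes of the 3 genes in G3 were -0.69, -0.56, and -0.69, none of them called. The 3 genes were picked for this likeness over the same libraries, so their low values in G3 follow from the choice. *pigeon* and *barr* lie on 2L and *nst* on 3L, so none is a neighbor of *drosha*.

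**Figure D3:**
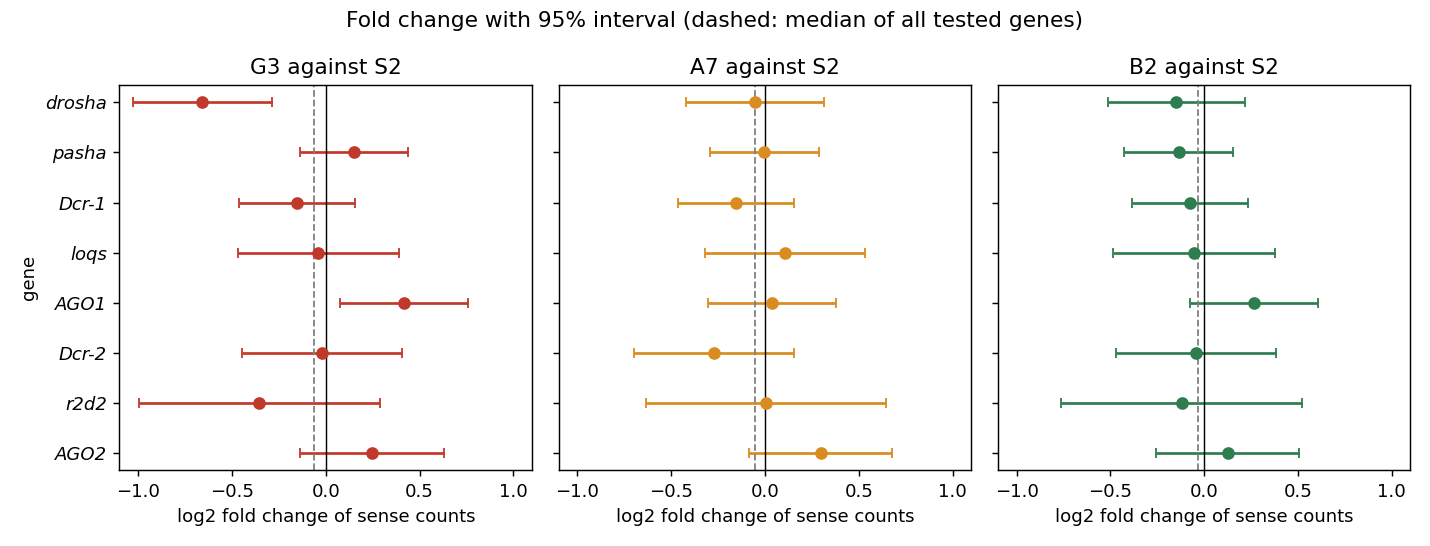
Log2 fold change of sense counts (horizontal axis) of each gene in G3, A7, and B2 against S2, with its 95% interval; the dashed line is the median of all 9612 tested genes. Only the intervals of *drosha* (-1.03 to -0.29) and *AGO1* (0.08 to 0.76) in G3 leave out 0.

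At the cytoplasmic step of the miRNA pathway the differences were small. *Dcr-1* (chr3R:18559729-18566843), the Dicer that cuts miRNA hairpins, had 103 and 118 CPM in G3, 106 and 114 in A7, 115 and 118 in B2, and 121 and 125 in S2. All 6 mutant libraries were thus below both S2 libraries, which holds for 4.26% of all tested genes, and *Dcr-1* was the only one of the 8 genes with such an order in either direction. The log2 fold change was -0.15 for G3, -0.15 for A7, and -0.08 for B2, each interval included 0, and the mean of the 3 lines was -0.13 (SE 0.11, adjusted p = 0.788). The line means of *Dcr-1* spanned 0.15 on the log2 scale, and only 6.80% of the tested genes had a narrower span.

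*loqs* (chr2L:13382577-13385747), which encodes the double-stranded RNA-binding partners of both Dicers through different isoforms, had 15.6 and 11.8 CPM in G3, 15.8 and 14.9 in A7, 13.9 and 13.5 in B2, and 14.0 and 14.5 in S2. These are between 61 and 167 sense counts per library, and the counts do not separate isoforms. The 2 G3 libraries lay on either side of S2, and the fold changes against S2 were between -0.05 and 0.11 on the log2 scale, with SEs of 0.18.

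*AGO1* (chr2R:9830892-9845594), the Argonaute of the miRNA pathway, had the highest level per length of the 8 genes in every library. It had 595 and 719 CPM in G3, 498 and 513 in A7, 538 and 645 in B2, and 476 and 508 in S2. Both G3 and both B2 libraries were above both S2 libraries, whereas those of A7 overlapped S2. The log2 fold change was 0.42 in G3 (SE 0.14, 95% interval 0.08 to 0.76, adjusted p = 0.349), 0.27 in B2 (adjusted p = 0.999), and 0.04 in A7. With the replicate block the adjusted p in G3 was 0.0505, just over the threshold.

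The neighbors of *AGO1* had other values than *AGO1* itself. In G3 the median of the 16 tested genes within 50 kb was -0.17, and 13 of 16 were below *AGO1*; in B2 the median was 0.01, with 11 of 16 below it. The 3 that were above it in G3 were *DJ-1alpha*, whose listed extent overlaps *AGO1* by 51 bp, with 1.61 (adjusted p = 0.319), and *mgn00031* and *mgn00032*, with 1.84 and 1.86 (adjusted p = 0.236 and 0.233). None of the 16 was called without the block. With the block 3 were called in G3, against 5.85% of all genes, 2 in A7, against 3.67%, and 1 in B2, against 0.427%. The 3 in G3 included *mgn00031* and *mgn00032* (adjusted p = 0.00962 and 0.00979 by edgeR). *CG33155* and *mRpL53*, both listed within *AGO1*, held 230 sense counts each over the 8 libraries, against 2616 or more for *AGO1* in each library. Their antisense counts were 1969 and 1951. The files give no strand for these genes, and how many reads they share with *AGO1* was not tested.

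In the siRNA pathway, *Dcr-2* and *r2d2* showed no called difference. *Dcr-2* (chr2R:13462484-13469072), which dices long double-stranded RNA, had 122 and 143 CPM in G3, 95.2 and 129 in A7, 124 and 138 in B2, and 140 and 129 in S2. The 2 A7 libraries were further apart than any pair of the other lines, the lower of them the lowest of the 8, and the log2 fold change in A7 was -0.27 (95% interval -0.70 to 0.16). It was -0.07 without the first A7 library and -0.50 without the second. In G3 and B2 it was -0.02 and -0.04. Of 21 tested neighbors of *Dcr-2*, *CG10936*, at 43.8 kb, was the only one called without the block, where 0.603% of all genes were called in G3. It had a log2 fold change of 2.04 in G3 (adjusted p = 0.0343 by edgeR). With the block 2 of 21 were called in G3, against 5.85% of all genes.

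*r2d2* (chr2L:7800108-7801939), the loading partner of Dcr-2, was the least counted of the genes, with between 24 and 68 sense counts per library. It had 6.0 and 4.66 CPM in G3, 6.42 and 7.45 in A7, 5.66 and 7.06 in B2, and 6.37 and 7.40 in S2. Both G3 libraries were below those of S2, with a log2 fold change of -0.35, but its interval ran from -0.998 to 0.29, the widest in this comparison among the 8 genes. Between same-numbered libraries the log2 ratio was -0.09 and -0.67, and leaving out a library gave between -0.56 (without the first G3 library) and -0.15 (without the second).

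*AGO2* (chr3L:15547161-15554147), the slicing Argonaute of the siRNA pathway, had 103 and 135 CPM in G3, 127 and 119 in A7, 111 and 108 in B2, and 96.3 and 104 in S2. The libraries of A7 and B2 were above both S2 libraries, and one of the G3 libraries was not. Its log2 fold change against S2 was 0.25 for G3, 0.30 for A7, and 0.12 for B2 (adjusted p = 0.681, 0.695, and 0.999). In G3 it was 0.08 without the second G3 library and 0.43 without the first.

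*AGO2* lies 1.534 Mb past the end of *upSET* on 3L, and most of its tested neighbors were above 0 in G3 and A7. Within 50 kb, 13 of 16 tested genes were above 0 in G3, with a median of 0.28, and 15 of 16 in A7, with a median of 0.32; in B2 it was 8 of 16, with a median of -0.02. Between same-numbered libraries the neighbor median over S2 in G3 was 0.23 for number 1 and 0.17 for number 2, with 4 and 3 of 16 below 0. In A7 it was 0.47 for number 1, with 1 of 16 below 0, but 0.08 for number 2, with 7 of 16 below 0. Neighbor medians as high as these were seen at 3.38% of genes in G3 and 3.92% in A7. None of the 16 was called without the block, or with it, where 5.85% of all genes were called in G3 and 3.67% in A7. In A7 the genes between 500 and 1000 kb from *AGO2* on the side of *upSET* had a median of 0.46, with 23 of 27 above 0. In G3 it was 0.28, with 20 of 27 above 0. On the other side the medians at these distances were 0.15 in A7 and 0.18 in G3. There 36 and 31 of 46 genes were above 0. Between 1000 and 2000 kb on the side of *upSET*, the stretch that holds *upSET*, the median was 0.32 in A7 but -0.24 in G3. There 28 and 16 of 44 genes were above 0. The ratio of *AGO1* to *AGO2* counts was 5.80 and 5.31 in G3, 3.92 and 4.30 in A7, 4.85 and 5.99 in B2, and 4.94 and 4.88 in S2, so that both A7 libraries had the lowest ratios. This ratio, too, was chosen after the values were seen.

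Between the mutant lines 0 of 8 genes were called, against 0.208% of all genes in G3 against A7, 0.239% in G3 against B2, and 0.291% in A7 against B2. A test for any difference among the 4 lines called 0 of 8, against 0.572% of all genes, with *drosha* at the lowest unadjusted p of 0.0157 (adjusted p = 0.308). Libraries that did not overlap were counted as a description: 2 of the 8 genes were higher and 3 lower in G3 than in S2, against 17.1% and 21.1% of all genes, 2 and 2 in A7, against 16.7% and 19.5%, and 2 and 4 in B2, against 13.1% and 13.3%. Libraries numbered 2 against those numbered 1 gave 0 of 8 called, against 17.5% of all genes, and *AGO1* alone had an unadjusted p under 0.05 there (0.0437 by edgeR in the fit with the block, adjusted p = 0.131, log2 fold change 0.17).

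Antisense counts were read on the same 8 genes, where they can also come from a gene on the other strand. The share of counts that was antisense was at most 7.53% on *AGO1*, 4.33% on *Dcr-1*, 3.90% on *AGO2*, and 3.81% on *Dcr-2*. It was between 7.06% and 18.5% on *drosha* and between 8.33% and 29.4% on *r2d2*, the last from only 5 to 12 antisense counts. None of the 8 was called on antisense counts without the block, against 0.444% of the 12610 tested genes in G3, 0.293% in A7, 0.0634% in B2, and 0.270% for the mean of the mutant lines. At an unadjusted p under 0.05 there was 1 of 8 in each line, *loqs* in G3 and A7 and *pasha* in B2, against 2.99%, 3.41%, and 3.47% of all genes.

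*loqs* had the clearest difference on this strand. It had 56 and 28 antisense counts in G3, 77 and 25 in A7, 25 and 6 in B2, and 25 and 7 in S2, in libraries of unequal depth. As a share of the counts on *loqs* these were 26.0% and 31.5% in G3, 31.6% and 24.8% in A7, 17.5% and 8.70% in B2, and 17.1% and 7.87% in S2. The 4 libraries of G3 and A7 were thus above the 4 of B2 and S2. However, the 95% Wilson intervals of single libraries, which cover counting error only, overlapped. They were 17.4% to 34.0% in the second A7 library and 20.6% to 32.3% in the first G3 library. In the first S2 library the interval was 11.9% to 24.1%. In antisense CPM, too, both libraries of G3 and of A7 were above those of S2 and of B2. Against S2 this held for 10.6% of all tested genes in G3 and 12% in A7. Against B2 it held for 15% in G3 and 15.5% in A7.

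Scaled to the antisense counts of each library, the log2 fold change of *loqs* was 1.40 in G3 (SE 0.56, unadjusted p = 0.0208 by edgeR, adjusted p = 1), 1.52 in A7 (SE 0.56, unadjusted p = 0.0125, adjusted p = 1), and 0.21 in B2. With the replicate block it was called higher in A7, at 1.52 with an adjusted p of 0.0284, as was 1.15% of all genes (2.10% were called in either direction), and not in G3, where the adjusted p was 0.0795. Against B2 the differences were 1.19 in G3 and 1.31 in A7, comparisons added after the data were seen, with adjusted p-values of 0.270 and 0.147 with the block. No listed gene overlaps *loqs*. The adjacent *beta'Cop*, which ends 194 bp before it, had 154 and 168 sense CPM in G3, 147 and 152 in A7, 187 and 180 in B2, and 188 and 199 in S2, so its G3 and A7 libraries, where the antisense share on *loqs* was higher, were below those of B2 and S2. Its fold changes were not called (-0.26 in G3, -0.37 in A7), and its part in the antisense counts was not tested. *CG9293*, 95 bp past it, had between 7.66 and 10.4 sense CPM in the 8 libraries.

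**Figure D4:**
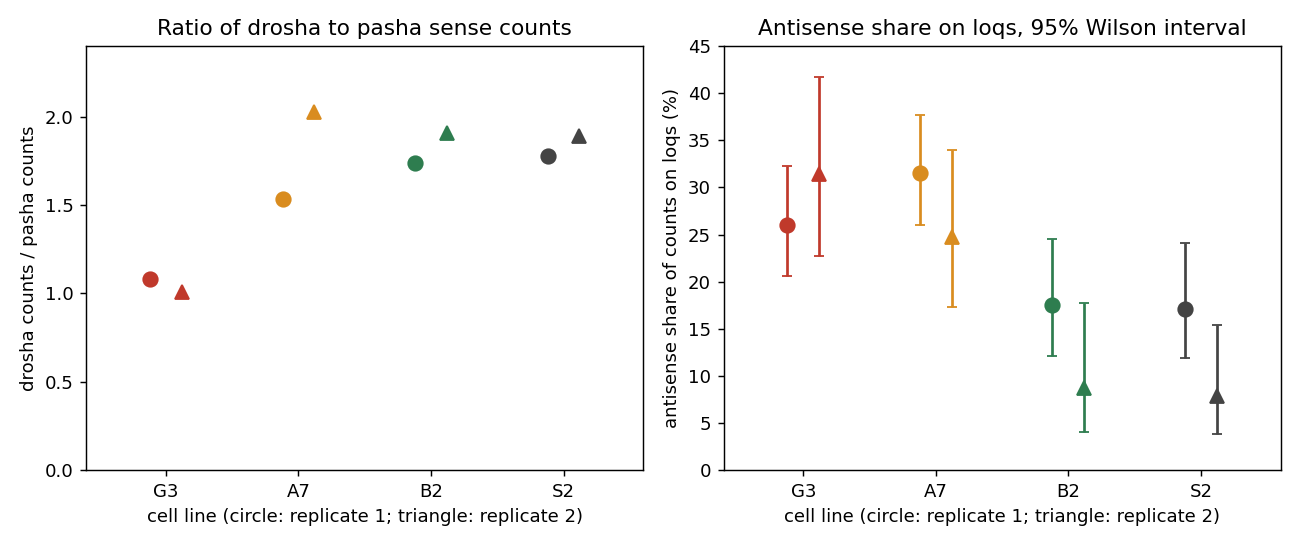
Left, ratio of *drosha* to *pasha* sense counts in each library; right, antisense share of the counts on *loqs* (percent) with 95% Wilson intervals; circles are libraries numbered 1 and triangles those numbered 2, in G3, A7, B2, and S2. The ratio is 1.08 and 1.01 in G3 and at least 1.54 elsewhere, and the antisense share is at least 24.8% in G3 and A7 and at most 17.5% in B2 and S2.

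Antisense counts on *pasha* rested on 1 library. They were 5 and 1 in G3, 4 and 1 in A7, 1 and 0 in B2, and 17 and 1 in S2, and the B2 library with 0 of 159 counts allows a share of up to 2.36% (95% Wilson interval). *kek6*, whose extent overlaps *pasha* by 143 bp, had between 219 and 724 sense counts per library. *CG33155* and *mRpL53*, which overlap *AGO1*, each had between 15 and 44 sense counts per library. On *AGO1* the second G3 library had 28 antisense counts, 0.750% of its counts there. The 7 others had between 92 and 493 antisense counts, or between 3.02% and 7.53%. *cdc14* overlaps *r2d2* by 155 bp and *CG7739* overlaps *AGO2* by 322 bp. *mgn00273*, listed with 3324 bp, lies wholly within *AGO2* and had 22 sense and 1525 antisense counts over all libraries. Antisense counts on *AGO2* itself were between 6 and 24 per library.

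Other genes of the pathway were read from lists made by role. The 27 genes fall in 5 groups and were all tested: nuclear processing and export, chaperones that load Argonautes, partners of Argonautes, enzymes that modify small RNA ends, and the deadenylation and decapping factors of miRNA silencing. None of the 27 was called in G3, A7, B2, or their mean against S2, where 0.603%, 0.375%, 0.0104%, and 0.156% of all genes were. At an unadjusted p under 0.05 there were 2 of 27 in G3, against 11.1% of all genes, and 1 of 27 in A7, in B2, and for the mean, against 8.75%, 3.25%, and 7.83%. Their median log2 fold change was 0.02 for G3, -0.002 for A7, and 0.08 for B2, beside -0.06, -0.05, and -0.03 for all tested genes.

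*Ranbp21*, the exportin that carries miRNA precursors out of the nucleus, had the largest mean difference of the 4 processing and export genes, -0.29. It was at -0.50 in G3 (adjusted p = 0.402), where the replicate block made it the only one of the 27 genes called (adjusted p = 0.0456), against 5.85% of all genes, at -0.43 in A7 (adjusted p = 0.603, 0.0928 with the block), and at 0.07 in B2. Among the 8 Argonaute partners *trsn*, which encodes Translin, had the largest mean difference, -0.52, with an SE of 0.39. *Hsp83*, the fly Hsp90, led the 4 chaperones with 0.14, and *Dcp2*, the decapping enzyme, led the 8 decay genes with 0.21. The 3 genes of small RNA end modification differed least, and the widest mean among them was -0.04 for *Nbr*, a trimming exonuclease. The 8 decay genes were all above 0 in B2, with a median of 0.09, but none was called.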

How the data were processed

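Nascent RNA of 4 cell lines, with 2 strand-specific libraries each, was analyzed; the chromatin immunoprecipitation samples were not used here. Per the study's methods, the authors trimmed the reads and aligned them to dm3, keeping those with a single place, and deposited whole, unnormalized counts of sense and antisense reads per gene. The labels list Bowtie 0.12.7 and bedtools; the counting program and the annotation are not given in the sources used here, and the files give no strand or exons. Columns that number the second series differently from the labels were taken as replicate 2.

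Counts were fitted in R 4.3.3 with edgeR 4.0.16 (TMM, quasi-likelihood test) in one model of the 4 lines over all 8 libraries, which leaves 4 residual degrees of freedom. Genes had to reach 1 CPM in 2 or more libraries to be tested, and each strand was normalized on its own; p-values were adjusted over all tested genes by the Benjamini-Hochberg method and called under 0.05. CPM values are scaled by the TMM factors. The replicate number was a block in an alternative fit. The labels do not say what a number stands for, but same-numbered libraries deviated together: the correlation across genes of their deviations from the line means was between 0.50 and 0.64 in all 6 pairs of lines. The 2 libraries of a line differed far beyond counting noise, with a chi-square per degree of freedom between 18.6 and 23.8. The other alternatives were DESeq2 1.42.0, library size alone, relative log expression factors, other filters, leaving out each library, and fitting only the lines compared. The fits were tested on simulated counts.

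All 8 genes are named with every library. Other pathway genes are named if called, or if they have the largest mean difference of their list; neighbors within 50 kb are named if they overlap or were called. The genes that adjoin *drosha* and *loqs*, *mgn00031*, and *mgn00032* were named after their values were seen. The genes and lists were chosen with earlier results of these data known. Shares have 95% Wilson intervals.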

Additional observations from a re-analysis of the deposited data

How the results depend on the processing

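With the replicate number as a block, 1 of the 8 genes was called on sense counts in G3 against S2, *drosha* (-0.65, adjusted p = 0.0309), in place of 0, and 562 of all tested genes in place of 58. On antisense counts the block gave 1 called gene in A7 against S2, *loqs* (1.52, adjusted p = 0.0284), in place of 0, and 265 of all genes in place of 37. The block changed no other call of the 8 genes. Each other alternative that was run for a comparison gave 0 called of the 8 genes; leaving out each library was run on both strands for all but libraries numbered 2 against 1, while DESeq2 was run on sense counts only. Over all alternatives *drosha* in G3 stayed between -0.78 and -0.53. Of 472 sense fold changes of the 8 genes under the alternatives, 38 differed in sign from the first fit, none called and none above 0.18 in size. Scaling by library size alone moved the median of all genes in G3 to -0.18, against -0.06 with TMM, and there *drosha* was at -0.78 and *AGO1* at 0.30. Counts were lowest for *r2d2* on the sense strand, at 24 to 68 per library.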
